A study of Mus musculus with 2 samples.

Results

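The genes described here encode precursors of the cornified envelope: the small proline-rich proteins Sprr1a and Sprr2h, involucrin (Ivl), transglutaminase 1 (Tgm1), cornifelin (Cnfn), periplakin (Ppl) and envoplakin (Evpl). They were taken by symbol from a list of 10 genes, of which 7 had a row among the 17492 genes of the count matrix. Sprr1b, Sprr2a3 and Sprr2d are not analysed here. Single-cell RNA-seq had been run on corneal epithelium of male C57BL/6J mice, 20 weeks old, as 1 diabetic and 1 control library, each a pool of 4 corneas from 2 mice. The diabetic mice had received a single streptozotocin injection of 160 mg/kg, a toxin that destroys the insulin-producing beta cells of the pancreas, and counted as diabetic if their weekly blood glucose stayed above 250 mg/dL for the 12 weeks of the study. The control mice had received citrate buffer. The study asked how the cells of the diabetic corneal epithelium differ from those of controls, and the expression of each precursor was compared between the 2 libraries within each cell label that the authors gave.

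The cornified envelope is the protein shell that replaces the plasma membrane of a terminally differentiated squamous cell. In the textbook account, which comes mainly from epidermis, the plakins envoplakin and periplakin pair up beneath the membrane and with involucrin form the first scaffold. Transglutaminase 1, anchored in the membrane, then joins the scaffold proteins by isopeptide bonds, and the small proline-rich proteins act as short cross-bridges between them. Cornifelin is a small cysteine-rich component of the shell. The healthy corneal surface is a wet, non-keratinised squamous epithelium, whose outermost cells are shed without forming a full horny layer, and the neighbouring conjunctiva is another wet epithelium with its own keratins.

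The diabetic library held 8203 cells and 171030636 unique molecular identifiers (UMIs, which count each captured molecule once), and the control library held 9605 cells and 196359192 UMIs. Median UMIs per cell were 17677 in diabetic and 16487 in control cells, the median mitochondrial share was 1.67% in diabetic and 1.60% in control cells, and 18 cell barcodes occurred in both libraries. The authors' deposited cell labels were used as they stand: Squam, Wing, Conj, LSC, TAC1, TAC2, Basal and Immune. The labels are abbreviations that the sources used here do not spell out. Levels are given as CPM, the summed UMIs of a gene in a label scaled to the label's total. Markers of superficial squamous cells summed to 44141 CPM in diabetic and 32215 CPM in control Squam cells, and to at most 5791 CPM in any other label. Most of the Squam sum was Psca (40529.2 CPM diabetic, 28929.5 CPM control). Conjunctival markers were likewise highest in Conj, and wing markers in Wing. The summed LSC markers were higher in Conj than in LSC in both libraries, nearly all of it Krt15, whereas Gpha2, Apoe and Ifitm3 were highest in LSC among the 7 epithelial labels. Epidermal markers (Krt10, Krt1, Krt2, Krt77 and Lor) summed to no more than 50.7 CPM in any label. Each group was 1 library, so no test between groups was possible, and every interval below is an exact 95% interval that covers counting error only. The limit that a count of 0 allows is given throughout as a floor of 3 counts. Differences were called by size alone: a gene counted as higher or lower where its diabetic over control CPM ratio was at least 1.5 either way, its UMIs summed to at least 50 and its CPM intervals lay apart. Neighbouring labels are said to overlap where the ranges of their CPM intervals over both libraries did.

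On the GRCm38 build, Sprr2h (chromosome 3, 92385685 to 92387324, plus strand), Sprr1a (92483952 to 92485895, minus strand) and Ivl (92570902 to 92573735, minus strand) lie within 188 kb of each other in the epidermal differentiation complex. Tgm1 lies on chromosome 14 (55700009 to 55713926), Cnfn on chromosome 7 (25367620 to 25369724), Ppl on chromosome 16 (5086291 to 5132421) and Evpl on chromosome 11 (116220559 to 116238077), all on the minus strand. Tgm1 overlaps the gene model Gm49067 on the opposite strand. No 31-base stretch of the Sprr1a, Tgm1, Cnfn, Ppl or Evpl transcript occurred in a transcript of another gene, while 2.77% of those of Sprr2h and 1.69% of those of Ivl did. The sequences upstream of 4 precursors are shown because Sprr1a, Sprr2h and Ivl share a motif there that the Cnfn window does not hold. The levels of Sprr1a and Ivl by cell label differed from each other, as described further on, and Sprr2h had too few UMIs to compare. Each line is the 250 bases before the RefSeq start site on GRCm38.p6, 5′ to 3′ on the gene's own strand, with the AP-1 motif TGANTCA in capitals. AP-1 is the family of Fos and Jun transcription factors, known to drive involucrin and small proline-rich genes in epidermal keratinocytes. The regions are chr3:92485882-92486131 for Sprr1a, chr3:92385435-92385684 for Sprr2h, chr3:92573736-92573985 for Ivl and chr7:25369725-25369974 for Cnfn.
Sprr1a: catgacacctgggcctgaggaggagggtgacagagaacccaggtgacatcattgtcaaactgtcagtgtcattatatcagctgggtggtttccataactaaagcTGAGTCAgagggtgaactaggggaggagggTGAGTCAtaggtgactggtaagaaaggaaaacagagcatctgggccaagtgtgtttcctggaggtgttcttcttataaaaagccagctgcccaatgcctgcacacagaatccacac
Sprr2h: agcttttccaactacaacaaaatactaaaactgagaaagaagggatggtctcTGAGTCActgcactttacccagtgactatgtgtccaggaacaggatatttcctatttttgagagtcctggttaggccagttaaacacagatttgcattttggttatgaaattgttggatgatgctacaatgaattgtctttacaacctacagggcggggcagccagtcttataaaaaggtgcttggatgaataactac
Ivl: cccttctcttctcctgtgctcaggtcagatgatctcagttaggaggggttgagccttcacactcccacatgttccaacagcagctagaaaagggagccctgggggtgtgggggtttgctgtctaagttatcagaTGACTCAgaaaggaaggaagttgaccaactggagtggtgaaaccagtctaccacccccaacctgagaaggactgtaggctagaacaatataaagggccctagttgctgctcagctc
Cnfn: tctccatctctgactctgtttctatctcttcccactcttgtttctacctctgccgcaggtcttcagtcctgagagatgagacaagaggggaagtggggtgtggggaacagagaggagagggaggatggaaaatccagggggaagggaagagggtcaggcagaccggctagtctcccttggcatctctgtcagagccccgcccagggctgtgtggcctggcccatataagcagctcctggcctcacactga
Sprr1a held 2 AP-1 motifs, 146 and 116 bases before the start, Sprr2h held 1 at 198 bases and Ivl held 1 at 116 bases. The motif was searched on both strands, and 6.75% of the 32851 upstream windows in the RefSeq table held it. The same windows of Sprr1a, Sprr2h and Ivl held the TATA motif TATAAA, which 12.4% of all windows held on either strand. Neither motif was found in the windows of Cnfn or of the 2 listed start sites of Tgm1. A match is a run of letters, not a measured binding site. Sequences were listed for 5 of the 7 precursors, and Ppl and Evpl were not among them.

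The scaffold plakins had a UMI in most cells of every epithelial label. Ppl stood at 1304 CPM in diabetic and 1169 CPM in control Squam cells, followed by Conj (1059 CPM diabetic, 863 CPM control), Wing (784 CPM diabetic, 772 CPM control) and LSC (265 CPM diabetic, 326 CPM control). TAC2, Basal and TAC1 cells lay between 164 and 206 CPM, and TAC2 overlapped with Basal and Basal with TAC1, while all higher neighbours were apart. The Squam to Wing ratio was 1.66 in diabetic and 1.51 in control cells. Evpl had a flatter top: Conj (807 CPM diabetic, 701 CPM control), Wing (667 CPM diabetic, 728 CPM control) and Squam (672 CPM diabetic, 647 CPM control) overlapped in that order, well above LSC (188 CPM diabetic, 264 CPM control) and the 3 remaining labels at 96.9 to 156 CPM. Ppl had a UMI in 84.5% of diabetic and 82.7% of control Basal cells, and Evpl in 70.8% of diabetic and 70.0% of control Basal cells. With every cell thinned to 5000 UMIs the shares were 55.3% of diabetic and 56.7% of control Basal cells for Ppl and 39.9% of diabetic and 41.3% of control Basal cells for Evpl. In the Immune label, whose cells should lack plakins, Ppl was seen in 0 of 10 diabetic and 2 of 26 control cells and Evpl in 1 of 10 diabetic and 4 of 26 control cells, at median depths of 3044 and 2424 UMIs. By that floor the 0 of 10 allows a share of up to 30.0%, so these few shallow cells set a loose background.

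Between the libraries, neither plakin passed the rule of size in any label. The diabetic over control ratios in Conj were 1.23 (1.19 to 1.26) for Ppl and 1.15 (1.12 to 1.19) for Evpl. In LSC the ratios were 0.812 (0.740 to 0.892) for Ppl and 0.711 (0.639 to 0.791) for Evpl. Both plakins thus lay above control in Conj and below it in LSC by more than counting error. In LSC the 10% of cells with most UMIs held 50.7% of the diabetic and 45.6% of the control Ppl UMIs. For Evpl they held 58.8% of the diabetic and 53.6% of the control UMIs. Under the other settings run, the LSC ratios ranged from 0.713 to 0.825 for Ppl and from 0.641 to 0.739 for Evpl. In Squam the ratios were 1.11 (1.10 to 1.13) for Ppl and 1.04 (1.02 to 1.06) for Evpl, and in Wing 1.02 for Ppl and 0.916 (0.904 to 0.929) for Evpl. Over all cells Evpl stood at 433 CPM in the diabetic and 503 CPM in the control library, a ratio of 0.861 (0.853 to 0.869). The label shares differed between the libraries, with 24.1% of diabetic and 30.2% of control cells labelled Wing, and the Evpl ratio was 0.918 when both libraries were given the same label shares.

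**Figure D1:**
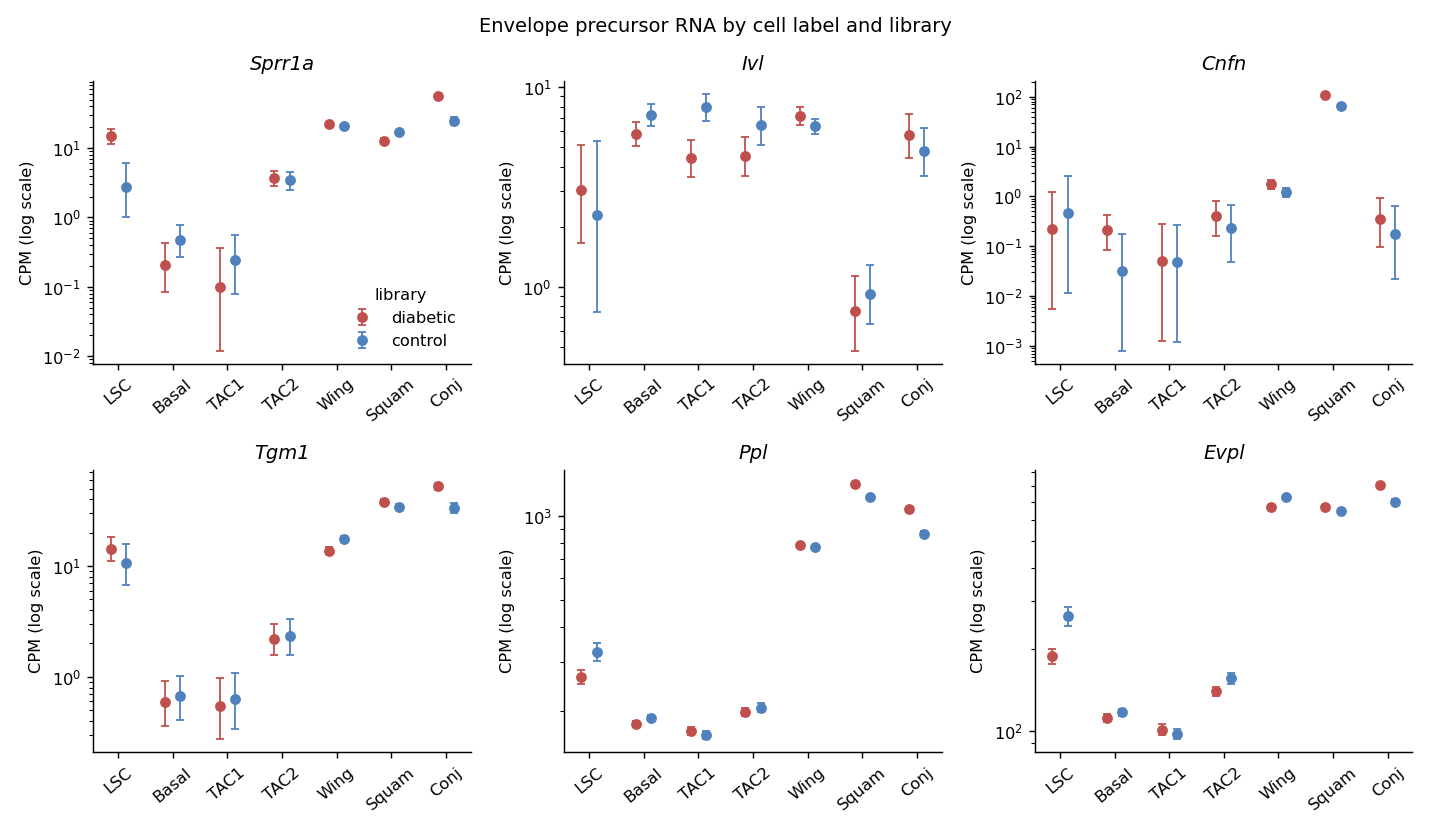
Level of 6 precursors in each label, as CPM of the summed counts on a log scale, with diabetic (red) left of control (blue); points are 1 library each and bars are exact 95% Poisson intervals. Cnfn is high in Squam alone, Ivl is lowest in Squam, Sprr1a is highest in Conj, Tgm1 is highest in Conj and Squam, and the plakins are present in every label.

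Involucrin RNA was scarcest in Squam. Ivl stood at 7.19 CPM in diabetic and 6.36 CPM in control Wing cells and at 5.83 CPM in diabetic and 7.28 CPM in control Basal cells, but at only 0.752 CPM in diabetic and 0.923 CPM in control Squam cells. The Squam to Wing ratio was 0.105 (0.0655 to 0.159) in diabetic and 0.145 (0.101 to 0.204) in control cells. Neighbours in the order Wing, Basal, TAC1, TAC2, Conj, LSC and Squam all overlapped. No cell held more than 5 UMIs of Ivl, and the largest share of cells with a UMI was 16.3% in diabetic and 14.8% in control Wing cells (3.30% and 3.50% after each cell was thinned to 5000 UMIs). In Squam the share was 1.71% in diabetic and 2.21% in control cells (0.459% in diabetic and 0.260% in control cells after thinning). Median depth was similar in these labels, 20039 UMIs in diabetic and 19899.5 in control Wing cells against 21047 in diabetic and 22382 in control Squam cells.

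Ivl fell in diabetic TAC1 cells, at 4.41 CPM (89 UMIs), against 7.94 CPM (164 UMIs) in control TAC1 cells, a ratio of 0.555 (0.424 to 0.722). It was 1 of 3 precursors with enough UMIs for the rule in TAC1, where 1.52% of all genes tested were lower. In Basal the ratio was 0.801 (0.659 to 0.974) and in TAC2 0.702 (0.510 to 0.966), and neither passed the rule. In Wing the ratio was 1.13 (0.987 to 1.29) and in Conj 1.20 (0.822 to 1.76). TAC1 cells were deeper in the diabetic library, with a median of 19814 UMIs against 16938 in control, and with every cell thinned to 5000 UMIs the ratio was 0.676 and no longer passed. The part of depth in the TAC1 value was not tested.

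Tgm1, the enzyme of the set, was highest in Conj (52.3 CPM diabetic, 33.7 CPM control) and Squam (38.2 CPM diabetic, 34.5 CPM control), which overlapped. Wing (13.7 CPM diabetic, 17.6 CPM control) and LSC (14.3 CPM diabetic, 10.6 CPM control) came next and overlapped with each other. TAC2 (2.21 CPM diabetic, 2.33 CPM control) stood apart from them, and Basal and TAC1 lay at 0.545 to 0.664 CPM. The Squam to Basal ratio was 64.6 (41.6 to 106) in diabetic and 51.9 (33.8 to 84.0) in control cells. In Basal cells 0.840% of diabetic and 0.838% of control cells had a Tgm1 UMI (0.216% in diabetic and 0.338% in control cells after thinning), which serves as the background for the shares that follow.

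Tgm1 rose in diabetic Conj cells, with a ratio of 1.55 (1.36 to 1.78) from 584 diabetic and 374 control UMIs. A Tgm1 UMI was found in 59.8% (55.0 to 64.4) of diabetic and 49.5% (44.8 to 54.1) of control Conj cells. After thinning to 5000 UMIs the shares were 19.8% and 14.6%. No cell dominated: the top cell held 1.71% of the diabetic and 1.87% of the control Conj UMIs. In Wing the ratio was 0.780 (0.712 to 0.853), and 24.1% of diabetic against 28.9% of control Wing cells had a UMI (5.81% in diabetic and 7.61% in control cells after thinning). In Squam it was 1.11 (1.02 to 1.20). Conj held 22.3% of all Tgm1 UMIs in the diabetic library and 11.7% in the control library, whereas Wing held 27.8% in the diabetic and 43.5% in the control library.

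Other genes of the small proline-rich family, apart from Sprr2f, were not analysed here, so their expression is not known. Of the small proline-rich precursors analysed, Sprr1a and Sprr2h, Sprr1a was the one with measurable expression. It was highest in Conj (55.7 CPM diabetic, 24.6 CPM control), followed by Wing (21.9 CPM diabetic, 20.6 CPM control), Squam (12.7 CPM diabetic, 16.9 CPM control), LSC (14.8 CPM diabetic, 2.75 CPM control) and TAC2 (3.68 CPM diabetic, 3.42 CPM control). Basal and TAC1 cells stood at 0.0990 to 0.475 CPM. Wing and Squam were apart in this order, as were TAC2 and Basal, and the other neighbours overlapped. The expression was sparse: 26.3% of diabetic and 25.3% of control Wing cells had a Sprr1a UMI, against 0.294% of diabetic and 0.559% of control Basal cells at median depths of 14438.5 and 13146 UMIs. After thinning the shares were 7.96% of diabetic and 7.54% of control Wing cells and 0.173% of diabetic and 0.127% of control Basal cells. Most positive Wing cells had 1 UMI, while the highest Wing cell had 62 UMIs in the diabetic and 31 in the control library.

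Sprr1a rose in diabetic Conj cells, with 622 diabetic and 273 control UMIs and a ratio of 2.27 (1.96 to 2.63). The share of Conj cells with a UMI was 38.2% (33.6 to 42.9) in the diabetic and 29.7% (25.6 to 34.1) in the control library. The difference lay mostly in cells with many UMIs: 13 diabetic and 2 control Conj cells held 10 or more, and these held 42.0% of the diabetic and 8.42% of the control UMIs of that label. With each cell thinned to 5000 UMIs the ratio was 1.47, below the rule, and the shares were 13.5% in diabetic and 11.5% in control Conj cells. Conj thus had more Sprr1a UMIs per cell in the diabetic library, while the thinned shares of positive cells lay close together. Median depth in Conj was 23388.5 UMIs in diabetic and 22157 in control cells. In Conj the conjunctival markers summed to 18949.8 CPM in diabetic and 14241 CPM in control cells, with all 6 detected in both libraries, and Krt4, a keratin of wet stratified epithelia, stood at 5909 CPM in diabetic and 3661 CPM in control Conj cells. The part of this marker difference in the Conj values of Sprr1a and Tgm1 was not tested.

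**Figure D2:**
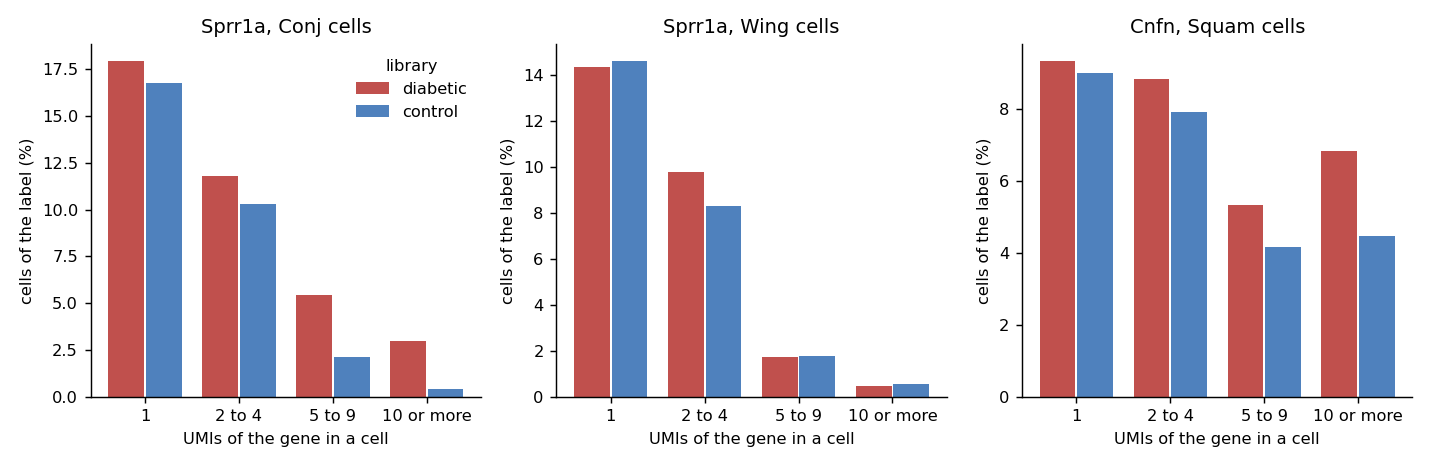
Share of cells of a label (per cent) that held 1, 2 to 4, 5 to 9, or 10 or more UMIs of Sprr1a in Conj, Sprr1a in Wing and Cnfn in Squam, with diabetic (red) left of control (blue); cells with none are not drawn. Cells with 10 or more UMIs made up 2.95% of diabetic and 0.430% of control Conj cells for Sprr1a and 6.83% of diabetic and 4.47% of control Squam cells for Cnfn, and for Sprr1a in Wing 0.456% of diabetic and 0.551% of control cells.

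In LSC, Sprr1a also passed the rule, with 68 diabetic and 6 control UMIs and a ratio of 5.36 (2.34 to 15.1). These UMIs came from 18 of 331 diabetic and 5 of 202 control LSC cells, and 1 diabetic cell held 17 of them. Without the 1% of LSC cells with most Sprr1a UMIs, a setting chosen after seeing the data, the ratio was 5.44 and the rule was no longer passed. LSC cells were deeper in the diabetic library, at a median of 12284 UMIs against 9259.5 in control. After thinning, 8 of 295 diabetic and 0 of 169 control LSC cells had a Sprr1a UMI, and by the floor of 3 counts the 0 allows a share of up to 1.78%. The 8 positive diabetic cells were compared with the other 287. They had 7.995 times as much Krt13 (6.17 to 10.2), 4.83 times as much Krt19 (2.83 to 7.83) and 3.43 times as much Krt4 (2.69 to 4.33). They had 0.306 times as much Krt12 (0.226 to 0.405), the corneal keratin. These intervals count UMIs and not the spread between the 8 cells. Krt13, Krt19 and Krt4 are only part of the conjunctival marker list. The other genes on that list, Krt8, Cyp2f2 and Wfdc18, are not given here for these cells. Conjunctival markers summed over all LSC cells were 1861 CPM in the diabetic and 1607 CPM in the control library. The part of cells rich in Krt13, Krt19 and Krt4 in the LSC ratio was not tested.

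In Squam the Sprr1a ratio was 0.748 (0.658 to 0.849), from 387 diabetic and 660 control UMIs, and in Wing it was 1.06 (0.981 to 1.14). Neither passed the rule. Over all cells the ratio was 1.01 (0.953 to 1.07), with 13.5 CPM in the diabetic and 13.4 CPM in the control library. Conj held 26.9% of all Sprr1a UMIs in the diabetic and 10.4% in the control library. Wing cells with a Sprr1a UMI, compared with Wing cells without one after thinning, had more of the superficial marker Psca (1.87-fold, 1.80 to 1.94, in diabetic and 1.52-fold, 1.46 to 1.58, in control cells) and more Krt13 (1.69-fold, 1.61 to 1.77, in diabetic and 1.44-fold, 1.38 to 1.51, in control cells). In Conj the same comparison went opposite ways for Psca, at 0.328 (0.293 to 0.365) in diabetic and 1.47 (1.35 to 1.59) in control cells, and for the corneal keratin Krt12, at 0.485 (0.441 to 0.533) in diabetic and 1.28 (1.20 to 1.36) in control cells. Krt4 was higher in Sprr1a-positive Conj cells of both libraries, 1.49-fold (1.43 to 1.55) in diabetic and 1.28-fold (1.20 to 1.36) in control cells. The opposite values of Psca and Krt12 in Conj rest on 58 diabetic and 52 control positive cells and have no replicate.

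Sprr2h was hardly detected: 0 UMIs in the diabetic library and 3 in the control library, 2 in Squam and 1 in Wing. By the floor of 3 counts, the 0 of 171030636 UMIs allows a level of up to 0.0175 CPM. Sprr2f, the other gene of the Sprr family analysed here, had 4 UMIs in the diabetic and 120 in the control library, a call lower over all cells (ratio 0.0383, 0.0103 to 0.101). Of the 115 control UMIs in Squam, 112 came from a single cell, and diabetic Squam cells had 0. The rule of size also called Sprr2f lower in Squam, at least 30.1-fold against a floor of 3 counts over the diabetic Squam cells, but both calls rest on that 1 cell, and 7.94% of the 31-base stretches of Sprr2f are shared with other Sprr2 genes.

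Cornifelin was the precursor most concentrated in one label. Cnfn stood at 110.3 CPM in diabetic and 64.4 CPM in control Squam cells, and 96.8% of its UMIs in the diabetic and 96.0% in the control library were in Squam. Wing came next at 1.75 CPM in diabetic and 1.22 CPM in control cells, so that the Squam to Wing ratio was 62.8 (51.1 to 78.1) in diabetic and 52.9 (43.2 to 65.6) in control cells. All other epithelial labels lay between 0.0316 and 0.459 CPM and overlapped with their neighbours. The Wing ratio was 1.44 (1.07 to 1.94) and did not pass the rule, and with thinned cells it was 0.830, on the other side of 1. Basal cells held 0.188% of the Squam level of Cnfn in the diabetic and 0.0491% in the control library, while for Psca, the most abundant squamous marker in Squam, the figures were 0.0951% and 0.276%. Conj cells, with the highest mean levels of Sprr1a and Tgm1, had 4 diabetic and 2 control UMIs of Cnfn.

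Cnfn rose in diabetic Squam cells, with 3373 diabetic and 2514 control UMIs and a ratio of 1.71 (1.62 to 1.80). The share of Squam cells with a UMI was 30.4% (27.9 to 32.9) in the diabetic and 25.6% (23.5 to 27.8) in the control library (17.0% in diabetic and 14.1% in control cells after thinning). Within Squam the RNA was uneven: the 10% of cells with most UMIs held 82.5% of them in the diabetic and 84.7% in the control library, with maxima of 143 and 112 UMIs in a cell. Cells with 10 or more UMIs numbered 92 in the diabetic and 71 in the control library and held 72.6% and 64.0% of the UMIs. The ratio stayed at or above the rule's fold of 1.5 under all 7 other ways of scaling, weighting or filtering cells, from 1.51 with thinned cells to 1.83 with median-of-ratios scaling. The summed squamous markers, given above and mostly Psca, were also higher in the diabetic than in the control Squam cells. Their part in the Cnfn ratio was not tested.

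**Figure D3:**
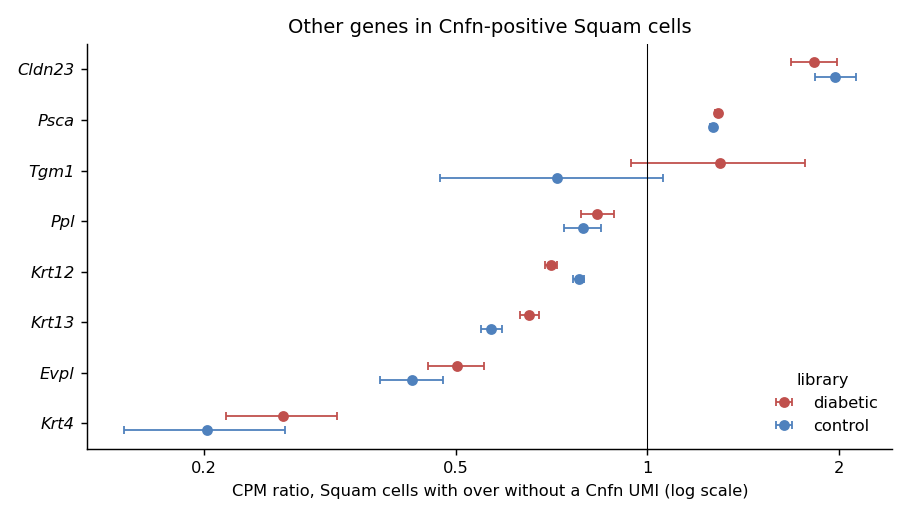
Ratio of CPM in Squam cells with a Cnfn UMI over those without one, on a log scale, after thinning each cell to 5000 UMIs, for the diabetic library (red, above) and the control library (blue, below); bars are exact 95% intervals of counting error. Cldn23 and Psca lie above 1, and Ppl, Evpl, Krt12, Krt13 and Krt4 lie below 1, in both libraries.

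Squam cells with a Cnfn UMI (222 diabetic and 217 control cells after thinning) differed from those without (1086 diabetic and 1324 control cells) in the same way in both libraries. They had 1.83-fold (1.69 to 1.99) as much of the claudin Cldn23 in diabetic and 1.98-fold (1.83 to 2.13) in control cells, and 1.29-fold as much Psca in diabetic and 1.27-fold in control cells. They had less of the scaffold plakins: Evpl was 0.501 times (0.452 to 0.553) the level of the other cells in diabetic and 0.426 times (0.380 to 0.477) in control Squam cells, and Ppl 0.834 times (0.785 to 0.886) in diabetic and 0.791 times (0.740 to 0.844) in control Squam cells. Cnfn-positive cells were thus richer in Cldn23 and Psca and poorer in both plakins. The other genes on the squamous marker list, Ndrg1, Cldn4, Muc4 and Krt78, are not given here for these cells. Krt4, Krt13 and Krt12 were lower too, Krt4 at 0.267 (0.217 to 0.325) in diabetic and 0.203 (0.150 to 0.269) in control cells. For Tgm1 the ratio was 1.30 (0.944 to 1.77) in diabetic and 0.719 (0.472 to 1.06) in control cells, both intervals including 1. The authors' labels and these splits use the same cells, so the ratios are descriptions.

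Across single cells the plakins were the pair that varied together most closely. In thinned cells the Spearman correlation of Ppl and Evpl was 0.54 over 1308 diabetic and 0.49 over 1541 control Squam cells, 0.51 over 1909 diabetic and 0.44 over 2773 control Wing cells, and 0.26 over 430 diabetic and 0.25 over 452 control Conj cells. Cnfn and Evpl had a correlation of -0.26 in diabetic and -0.28 in control Squam cells. Pairs of Sprr1a, Ivl and Tgm1 in Wing, and Sprr1a with Tgm1 in Squam and Conj, lay between -0.04 and 0.07. These counts were too sparse to read a relation from. Over the 14 points given by 7 epithelial labels and 2 libraries, the Pearson correlation of log2(CPM + 1) was 0.98 for Ppl and Evpl, 0.93 for Tgm1 with Sprr1a and with Ppl, and -0.82 for Ivl and Cnfn. These points share cells, libraries and label definitions and are descriptions.

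Within labels the rule was passed by Sprr1a in LSC and Conj, Tgm1 in Conj, Cnfn in Squam and Ivl in TAC1. Over all cells, 6 of the 7 precursors had at least 50 summed UMIs and 1 of them, Cnfn, was higher (20.4 CPM diabetic, 13.3 CPM control; ratio 1.53, 1.45 to 1.61), where 5.98% of 13846 genes tested were higher and 2.8% lower. That call over all cells was lost with the same label shares in both libraries (ratio 1.498), with median-of-ratios scaling (1.45) and with thinned cells (1.44). In Squam 1 of 6 was higher (Cnfn), where 1.79% of genes were higher and 7.75% lower. In Conj 2 of 5 were higher (Sprr1a and Tgm1), where 2.52% of genes were higher and 1.95% lower. In LSC 1 of 4 was higher (Sprr1a), where 2.63% of genes were higher and 2.61% lower. None of 6 was called in Wing (3.93% higher and 2.59% lower among all genes), none of 3 in Basal (2.63% and 2.38%) and none of 5 in TAC2 (2.21% and 1.35%), and no precursor was higher in TAC1 (1.7%). With so few precursors per label the counts say little beyond the named genes. Scaling by the median of ratios changed the make-up of all calls: in Squam 185 genes were higher and 799 lower in the main analysis and 274 and 569 with that scaling, and over all cells 828 and 387 became 632 and 497.

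In Conj all 5 precursors with enough UMIs had a ratio above 1, with a median log2 ratio of 0.30, where 53.5% of all genes tested had a ratio above 1 and the median was 0.02. In Squam 4 of 6 had a ratio above 1 (median log2 ratio 0.10, against -0.08 over all genes tested), and in Basal 0 of 3 did (median -0.07, against 0.01). In Wing 4 of 6 ratios were above 1 (median 0.05, against 0.04).

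**Figure D4:**
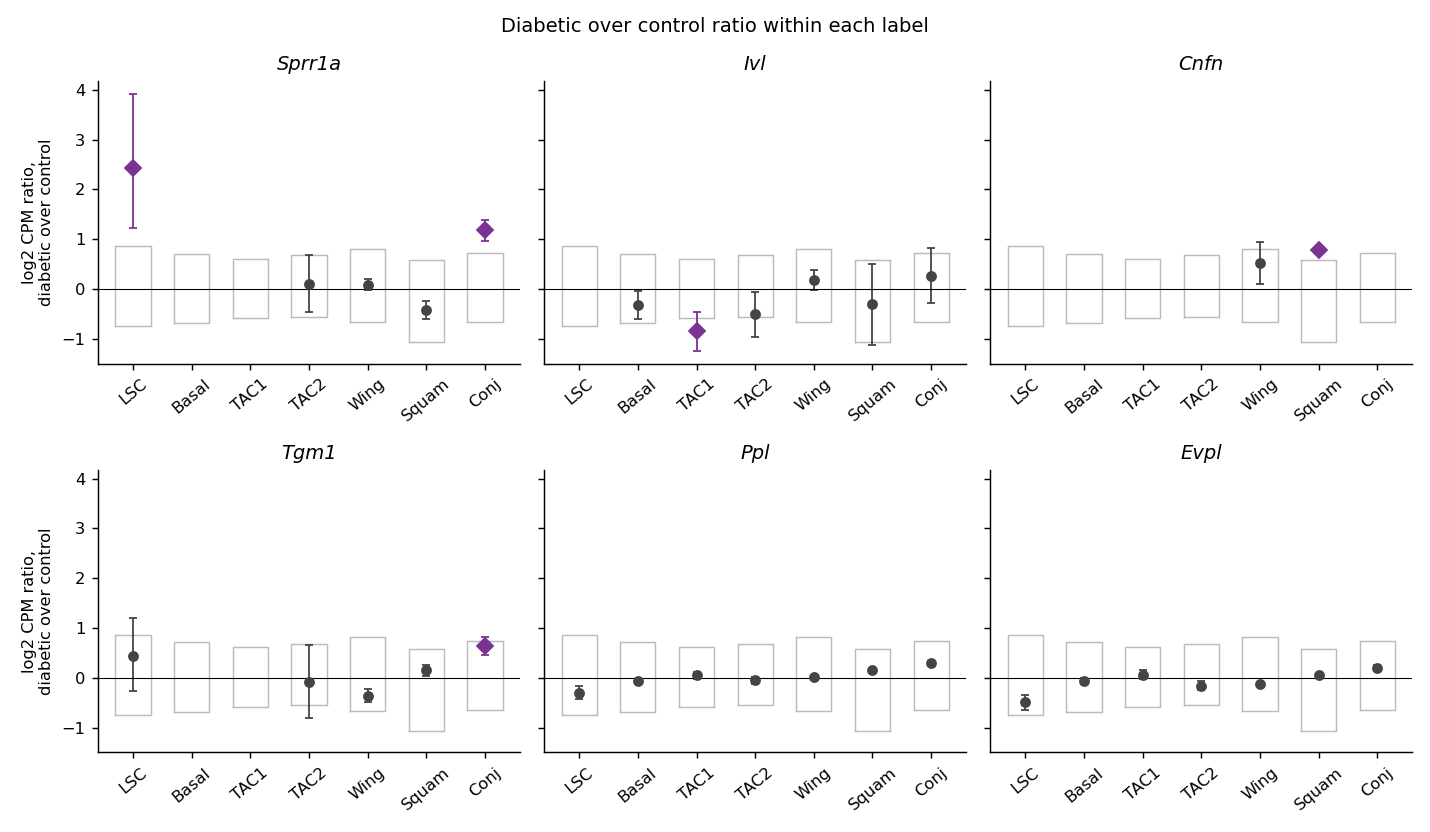
Log2 ratio of diabetic over control CPM for 6 precursors in each label with at least 50 summed UMIs; bars are exact 95% intervals, purple diamonds pass the rule of size, and grey boxes span the central 95% of all genes tested in that label. Sprr1a in LSC and Conj and Cnfn in Squam lie above the grey boxes and Ivl in TAC1 lies below its box, while the Tgm1 ratio in Conj and all plakin ratios lie inside theirs.

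By the same Pearson correlation as a measure of likeness, the 3 genes outside the set whose levels over the 14 points were most like those of a precursor were named, out of 6922 genes with at least 20 CPM in 1 point or more. For Cnfn they were S100a7a (r = 0.99), Lce3b (0.98), a late cornified envelope protein, and Duoxa2 (0.98), the maturation factor of a hydrogen peroxide-producing oxidase. S100a7a stood at 467 CPM in diabetic and 418 CPM in control Squam cells and at 7.19 CPM in diabetic and 6.79 CPM in control Wing cells. For Tgm1 they were the epithelial transcription factor Elf5, the defensin Defb1 and the adhesion molecule Ceacam1 (r = 0.99 each). For Ppl they were Mpzl3, Eps8l1 and Slc37a1, and for Evpl the palmitoyltransferase Zdhhc5, the lysosomal channel Tpcn1 and the junction protein Afdn (all r = 0.99). Sprr1a was most like Cadm4, Gdpd1 and Fam83h (r = 0.97, 0.97 and 0.96), and Ivl was most like Snf8, Dera and the connexin Gjb5 (0.95 each). The names depended on the points and the pseudocount. None of the 3 came up again from either library alone for Sprr1a and Ivl, from the diabetic library alone for Ppl, or with a pseudocount of 10 CPM for Tgm1. For Cnfn all 3 came up again from the control library alone and 1 from the diabetic library alone, and for Evpl 2 and 1 did.

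Other genes of the envelope pathway were taken from lists of related genes. Among the late envelope and granular layer genes, 18 of 34 listed genes had a row. Of these, 12 had enough UMIs in Squam, where 1 was higher and 2 were lower (1.79% higher and 7.75% lower among all genes tested). Lce3c was higher in diabetic Squam cells (44.8 CPM, against 12.3 CPM in control; 3.65-fold, 3.29 to 4.06), with 17.4% of the diabetic UMIs in 1 cell, and Kprp (11.5 CPM diabetic, 18.9 CPM control; ratio 0.608) and Crct1 (156 CPM diabetic, 235 CPM control; ratio 0.663) were lower. The called late genes thus lay on both sides of control in Squam, with UMIs concentrated in few cells. For Lce3c, 10 Squam cells held 66.4% of the diabetic and 69.7% of the control UMIs. The shares in 10 cells were 52.9% in diabetic and 27.9% in control for Crct1, and 29.5% and 26.3% for Kprp. In Wing, 2 of 12 were higher and 4 lower, where 3.93% of all genes tested were higher and 2.59% lower. Cdsn, the corneodesmosome adhesion protein (1.30 CPM diabetic, 0.698 CPM control), and Sbsn (13.8 CPM diabetic, 8.47 CPM control) were higher. Cdsn rested on 69 diabetic and 55 control UMIs, of which 10 cells held 47.8% in diabetic and 47.3% in control. Lce3f (0.0943 CPM diabetic, 6.66 CPM control; ratio 0.0142, 0.00458 to 0.0333) and Crct1 (0.132 CPM diabetic, 5.40 CPM control; ratio 0.0244, 0.00977 to 0.0508) were lower, from 5 and 7 UMIs in the diabetic library.

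The other 2 lower genes in Wing, named after their values were seen, were Lce3a (2.62 CPM diabetic, 56.4 CPM control) and Lce3b (0.264 CPM diabetic, 2.21 CPM control). Their control Wing UMIs were concentrated: 10 cells held 42.2% of those of Lce3a, 72.4% of those of Lce3b, 40.4% of those of Lce3f and 55.2% of those of Crct1. In Squam the Lce3a ratio was 1.02 and the Lce3b ratio was 1.45. Over all cells 15 late genes had enough UMIs, where 5.98% of all genes tested were higher and 2.8% lower. Of these, 3 were higher, among them Krtdap (1.76 CPM diabetic, 0.153 CPM control) and Lce3c (8.19 CPM diabetic, 2.76 CPM control). Another 3 were lower, among them Kprp (2.09 CPM diabetic, 3.94 CPM control) and Crct1 (28.0 CPM diabetic, 49.1 CPM control). Of the 301 diabetic Krtdap UMIs, 163 were in TAC2 and 62 in LSC, against 30 in Wing, 28 in Conj and 3 in Squam. In Conj 2 of 7 were higher, Casp14, the caspase of cornifying keratinocytes (8.87 CPM diabetic, 5.40 CPM control), and Sbsn (37.9 CPM diabetic, 23.2 CPM control), and none was lower. Of all genes tested in Conj, 2.52% were higher and 1.95% lower.

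Of the transglutaminases other than Tgm1, 4 had a row. Tgm2, the tissue transglutaminase, was lower over all cells (50.3 CPM diabetic, 83.0 CPM control; ratio 0.606, 0.591 to 0.622), in Wing (80.3 CPM diabetic, 126 CPM control; ratio 0.636, 0.614 to 0.660) and in Conj (3.94 CPM diabetic, 15.8 CPM control; ratio 0.250, 0.176 to 0.350). In Squam its ratio was 0.780, short of the rule. Tgm1 and Tgm2 thus moved in opposite directions in Conj, and both lay below control in Wing. None of the 5 other plakins (desmoplakin, Plec, Macf1, Dst and Eppk1) was called over all cells, Wing, Squam or Conj. The shares called among all genes tested in these sets ran from 1.79% to 7.75% per direction, so this says little for 5 genes.

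Among 11 other envelope substrates, the serpin Serpinb2 was higher over all cells (2.29 CPM diabetic, 0.937 CPM control) and in Conj (20.3 CPM diabetic, 8.37 CPM control; ratio 2.43, 1.90 to 3.13). The extracellular matrix protein Ecm1 was higher in Wing (28.9 CPM diabetic, 19.1 CPM control) and Conj (155 CPM diabetic, 86.9 CPM control; ratio 1.79, 1.65 to 1.94). No gene of this list was lower in these 4 sets, and none was called in Squam. Among all genes tested in the 4 sets, 1.79% to 5.98% were higher and 1.95% to 7.75% lower. Of 9 enzymes of the envelope's lipids, Sdr9c7, a dehydrogenase of ceramide processing, was lower over all cells (5.40 CPM diabetic, 10.9 CPM control), in Wing (7.42 CPM diabetic, 12.9 CPM control), Squam (13.5 CPM diabetic, 24.0 CPM control) and Conj (9.59 CPM diabetic, 15.9 CPM control). Cyp4f39, a fatty acid hydroxylase, was lower over all cells and in Wing (0.434 CPM diabetic, 1.22 CPM control), and the lipoxygenase Alox12b was higher in Squam on 46 diabetic and 26 control UMIs.

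Of 19 regulators of envelope genes, 18 had enough UMIs over all cells, where 1 was higher and none lower. Among all genes tested there, 5.98% were higher and 2.8% lower. The few calls thus say little about the regulators as a group. Ovol1, a zinc finger transcription factor, was higher in Conj (60.05 CPM diabetic, 38.1 CPM control; ratio 1.58, 1.39 to 1.79). Cebpb, a basic leucine zipper transcription factor, was lower in Squam (16.1 CPM diabetic, 28.0 CPM control), where 7.75% of all genes tested were lower. Fos, a partner in AP-1, was higher over all cells (244 CPM diabetic, 155 CPM control) and lower in Conj (28.2 CPM diabetic, 42.4 CPM control). In Conj 1 of 17 was higher and 1 lower, where 2.52% of all genes tested were higher and 1.95% lower. None of 17 with enough UMIs was called in Wing (3.93% higher and 2.59% lower among all genes tested).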

How the data were processed

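Single-cell 3′ libraries (Chromium Next GEM v3.1) of 1 diabetic and 1 control pool were used, with the epithelium lifted enzymatically and dissociated with trypsin, per the labels' protocols. The authors deposited raw UMI counts per gene and cell with a table of cell labels; Cell Ranger 5.0.0, Seurat 4 and the build mm10 come from the submitters' processing notes, and no source used here gives cell filters or doublet removal. Counts were summed per label and library and scaled to CPM, with exact Poisson intervals, exact conditional binomial intervals for ratios and Clopper-Pearson intervals for shares, all at 95% and covering counting error only. A count of 0 was given a floor of 3 counts. The rule of size was applied to all genes, and its code was tested on simulated counts. No test was run, since each group was 1 library. Thinning drew 5000 UMIs per cell and left out 264 diabetic and 486 control shallower cells. Likely doublets were the top 8% of Scrublet scores (683 diabetic and 791 control cells), left out only as an alternative, because the automatic threshold marked 0. Named genes were all precursors, the 3 most alike genes each, and up to 2 genes per direction with the largest ratio past the rule from the Sprr, plakin, transglutaminase, late envelope, substrate, lipid enzyme and regulator lists, over all cells and in Wing, Squam and Conj. A result of the regulator list is not reported here. The precursors, lists and rules were chosen with earlier results of these data known. Scanpy 1.11.5, pandas 2.3.3, scipy 1.17.1, numpy 2.4.6 and matplotlib 3.10.9 were run under Python 3.11.15. Positions are from GENCODE on GRCm38 and upstream sequences from RefSeq on GRCm38.p6.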

Additional observations from a re-analysis of the deposited data

Results flagged for a closer look

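For 4 precursors the diabetic over control ratio lay above 1 in one label and below 1 in another, with both counting intervals excluding 1. For Sprr1a the ratio was 5.36 in LSC and 0.748 in Squam. The LSC value rests on 68 diabetic and 6 control UMIs, and 1 diabetic cell held 17 of them. For Tgm1 it was 1.55 in Conj and 0.780 in Wing. For the plakins it was 1.23 in Conj and 0.812 in LSC (Ppl), and 1.15 in Conj and 0.711 in LSC (Evpl). These differences between labels were not tested, since each condition was 1 library. The share of all genes that would meet the same criterion was not determined. Counting intervals are narrow for abundant genes such as the plakins, so small differences can meet it.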

How the results depend on the processing

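No precursor's call changed direction under the alternatives run, but several calls were made or lost. Over all cells the count of higher precursors (1, Cnfn) was 0 with median-of-ratios scaling, with a fold of 2, with each cell thinned to 5000 UMIs and with the same label shares in both libraries. In LSC the count of higher precursors (1, Sprr1a) was 0 with a minimum of 200 summed counts, with thinned cells and without the 1% of cells with most UMIs of the gene. The count of lower precursors in LSC (0) was 1, Evpl, with a laxer fold than 1.5, without likely doublets and with thinned cells. In TAC1 the count of lower precursors (1, Ivl) was 0 with a fold of 2 and with thinned cells. The laxer fold gave 1 lower precursor in Wing (Tgm1) and 1 in Squam (Sprr1a), against 0 in each. A fold of 2 gave 0 higher precursors in Squam, against 1. In Conj 1 of the 2 higher precursors was left with a fold of 2 (Sprr1a) and 1 with thinned cells (Tgm1). The cause was not tested in any of these. Of the other counts of called precursors, 161 stayed within 1.5 times their value. Many of these were counts of 0 that stayed 0, so the number does not measure how firm the calls were. The ratio of Cnfn in Squam ranged from 1.51 to 1.83, that of Tgm1 in Conj from 1.54 to 1.57, that of Sprr1a in Conj from 1.47 to 2.31, that of Sprr1a in LSC from 3.21 to 7.45 and that of Ivl in TAC1 from 0.545 to 0.676. Leaving out the top cell or the top 1% of cells was chosen after seeing the data. No paired analysis was possible because each group is 1 library. Thinning to 5000 UMIs moved 56 of 57 shares of cells with a UMI outside their counting interval, so these shares hold only for the depth at which they are given. Of 18 comparisons of the most alike genes, 12 kept fewer than 2 of the 3 names. Sprr2h, Ivl in Squam and Cnfn outside Squam and Wing rest on few UMIs, and pools of 2 mice without replicates leave the variation between animals unmeasured.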
